A study of Mus musculus with 12 samples.

Results

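The insulin-like growth factor (IGF) genes form a small secreted signalling system. The ligands IGF1 and IGF2, encoded by Igf1 and Igf2, act through the receptor tyrosine kinase encoded by Igf1r. The IGF binding proteins (IGFBPs) hold the ligands in the extracellular fluid and matrix and limit or prolong their access to the receptor, and the metalloproteinase encoded by Pappa releases ligand by cleaving some of them. In skin, dermal fibroblasts are a local source of IGF1, which acts on keratinocytes and on the fibroblasts themselves. The 10 genes described here are both ligands, the receptor, the binding protein genes Igfbp2 to Igfbp7 and Pappa. They are taken by name and by no threshold on a measured value, although the set was drawn up with earlier results of these data known. All 10 were found among the 21556 genes of the count table.

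On build GRCm38 the annotation places Igf1 (ENSMUSG00000020053) at chr10:87858265-87937042 on the plus strand and Igf2 (ENSMUSG00000048583) at chr7:142650766-142666816 on the minus strand. Igf1r (ENSMUSG00000005533) at chr7:67952827-68233668 on the plus strand shares chromosome 7 with Igf2 and with Nox4, from which Igf1r lies 19.01 Mb and Igf2 55.3 Mb away. Igfbp2 (ENSMUSG00000039323) at chr1:72824503-72852474 on the plus strand neighbours Igfbp5 (ENSMUSG00000026185) at chr1:72857932-72874884 on the minus strand. Igfbp3 (ENSMUSG00000020427) at chr11:7206086-7213923 on the minus strand and Igfbp4 (ENSMUSG00000017493) at chr11:99041244-99054392 on the plus strand share chromosome 11. The others are Igfbp6 (ENSMUSG00000023046) at chr15:102144362-102149511 on the plus strand, Igfbp7 (ENSMUSG00000036256) at chr5:77349240-77408041 on the minus strand and Pappa (ENSMUSG00000028370) at chr4:65124174-65357509 on the plus strand. Counts were summed over the exons of each gene, so no value belongs to a single exon or UTR.

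RNA sequencing was performed on primary fibroblasts isolated from mouse abdominal skin. WT cells were from C57BL/6 mice and Nox4 KO cells from mice labelled B6.129-Nox4tm1Kkr/J, in which the gene for NADPH oxidase 4 was disrupted by targeting in the whole animal, so the loss was not limited to fibroblasts. Both lines were derived from the same heterozygous breeding and then bred apart. Cells of all groups were grown in DMEM with 10% FBS, plated for 24 h and starved for 24 h, and the stimulated groups then received TGF-β2 at 10 ng/ml for 24 h. WT control, WT TGF-β2, Nox4 KO control and Nox4 KO TGF-β2 had 3 libraries each. The labels do not tie a library to an animal, so p-values measure the spread between these libraries only. Age and sex of the mice are not given in the sample labels.

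Total counts per library were between 35118344 and 43796260. All 9 fibroblast markers were over 1 RPKM (read counts scaled to exon length and to the total count of the library). Their sum was 6643 to 7337 RPKM in WT control and 5464 to 6463 RPKM in WT TGF-β2. In Nox4 KO it was 6728 to 8035 RPKM in control and 5830 to 6680 RPKM after TGF-β2. None of 4 adipocyte, 6 keratinocyte or 5 Schwann cell and melanocyte markers reached 1 RPKM in any library. Among 5 endothelial markers, Kdr was over 1 RPKM in all 12 libraries, at up to 4.62 RPKM, and Tek in 2. Among 6 myoblast and skeletal muscle markers, only Actn3 was, in 4 libraries. Of 7 macrophage markers, 5 were over 1 RPKM in at least 1 library, and Lyz2 led with up to 90.8 RPKM, whereas Ptprc and Mrc1 stayed under 1 RPKM in every library. Of 5 pericyte and smooth muscle markers, 4 were over 1 RPKM, and their sum was 89.2 to 138 RPKM in control and 146 to 198 RPKM in stimulated libraries. The markers of this list did not move as one. The means of Cspg4 (6.84 and 30.5 RPKM in WT, 10.6 and 39.3 RPKM in Nox4 KO) and of Mcam were higher after TGF-β2, whereas those of Myh11 (40.9 and 18.2 RPKM in WT, 42.2 and 25.2 RPKM in Nox4 KO), Des and Rgs5 were lower. The part of such cells in the results was not tested. Nox4 itself was at 1.31 to 2.42 RPKM in WT control and 0.636 to 1.399 RPKM in Nox4 KO control, so these groups overlapped. After TGF-β2, Nox4 was at 8.56 to 16.3 RPKM in WT and 4.39 to 6.85 RPKM in Nox4 KO. Reads over the whole gene do not tell whether the disrupted part was transcribed. Ccn2, Acta2 and Tgfbi were read as a check of the stimulation. Ccn2 rose by 1.57 in WT and 1.59 in Nox4 KO on the log2 scale (edgeR adjusted p = 0.00420 and 0.00923). Acta2 did not pass, at 0.13 and -0.058 (0.664 and 0.820), nor did Tgfbi, at -0.34 and -0.53 (0.386 and 0.495).

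The main change after TGF-β2 was a lower level of the transcripts for the binding proteins IGFBP4 and IGFBP5, in both genotypes. Igfbp5 was 4.18-fold lower in WT and 3.04-fold lower in Nox4 KO, and Igfbp4 2.18-fold and 2.86-fold lower. By the main test, which did not pair the libraries, Igfbp6 passed as lower in Nox4 KO and Igf1r as slightly lower in WT. With the replicate number as a block, Igf1r, Igf2 and Igfbp3 also passed as lower in Nox4 KO (edgeR adjusted p = 0.0213, 0.00151 and 0.00819). The block also called Igf2 and Igfbp3 lower in WT (0.0331 for both). A difference in response between the genotypes passed for none of the 10 genes. None of the 10 genes passed the test in the direction of higher expression, and none differed between Nox4 KO and WT by the main test. Printed below are the promoter windows of the 3 binding protein genes that passed as lower in the main test. They are the sequences upstream of those transcripts. Each is RefSeq sequence of build GRCm38.p6, 5′ to 3′ on the strand of the gene, from 250 bases before to 50 bases after the annotated start, with matches to CAGAC, to GTCTAGAC and to TATAAA on either strand in capitals.
Igfbp4, chr11:99040994-99041293 (plus strand): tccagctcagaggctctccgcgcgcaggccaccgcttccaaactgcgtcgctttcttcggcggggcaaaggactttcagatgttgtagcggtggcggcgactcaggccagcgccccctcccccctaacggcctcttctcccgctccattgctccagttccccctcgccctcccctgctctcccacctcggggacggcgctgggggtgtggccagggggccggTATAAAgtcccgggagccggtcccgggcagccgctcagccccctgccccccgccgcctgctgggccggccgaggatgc
Igfbp5, chr1:72874816-72875115 (minus strand): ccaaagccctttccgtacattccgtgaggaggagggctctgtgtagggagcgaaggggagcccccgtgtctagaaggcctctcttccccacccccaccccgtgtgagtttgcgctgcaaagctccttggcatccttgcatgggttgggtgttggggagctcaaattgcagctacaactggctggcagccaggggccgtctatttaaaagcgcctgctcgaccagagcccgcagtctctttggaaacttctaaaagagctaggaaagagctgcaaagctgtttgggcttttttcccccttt
Igfbp6, chr15:102143936-102144235 (plus strand): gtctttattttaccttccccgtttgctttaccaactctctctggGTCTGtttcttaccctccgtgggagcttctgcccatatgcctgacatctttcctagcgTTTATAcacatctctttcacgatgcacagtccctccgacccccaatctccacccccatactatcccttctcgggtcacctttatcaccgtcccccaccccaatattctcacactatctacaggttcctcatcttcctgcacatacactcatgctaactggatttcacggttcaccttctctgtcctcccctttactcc

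CAGAC and GTCTAGAC are short forms of the element bound by SMAD proteins, which carry the TGF-β signal to the nucleus, and TATAAA is the core of the TATA box. The Igfbp4 window held a TATAAA match and no CAGAC. The Igfbp5 window held none of these letters, and the Igfbp6 window held one match each to CAGAC and TATAAA, both read on the opposite strand. Of 32851 windows of the same length, 49.6% held CAGAC, 13.6% TATAAA and 0.213% GTCTAGAC. RefSeq windows were found for 9 of the 10 genes, 13 windows in all, of which 7 held CAGAC, 2 TATAAA and 0 GTCTAGAC. A match of letters describes the window and is not evidence of binding.

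In WT control cells the 10 genes spanned a wide range of levels per length of transcript. Igfbp7, whose product binds IGFs weakly and is deposited in basement membrane, stood at 509 ± 49 RPKM (SD, n = 3), Igfbp6, whose product prefers IGF2, at 324 ± 47 RPKM and Igfbp2 at 216 ± 31 RPKM, and the ranges of these 3 did not overlap. They were followed by Pappa (22.4 ± 0.7 RPKM), Igf1r (22.0 ± 1.1 RPKM), Igfbp4 (19.7 ± 2.9 RPKM) and Igfbp5 (17.0 ± 8.0 RPKM). Libraries of neighbours in this second set overlapped. Igf1 (10.3 ± 2.5 RPKM) and Igfbp3 (8.64 ± 5.70 RPKM) overlapped as well, and Igf2, at 1.31 ± 0.60 RPKM, lay under all others without overlap. The order of the leading 3 by mean was the same in the other three groups.

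**Figure D1:**
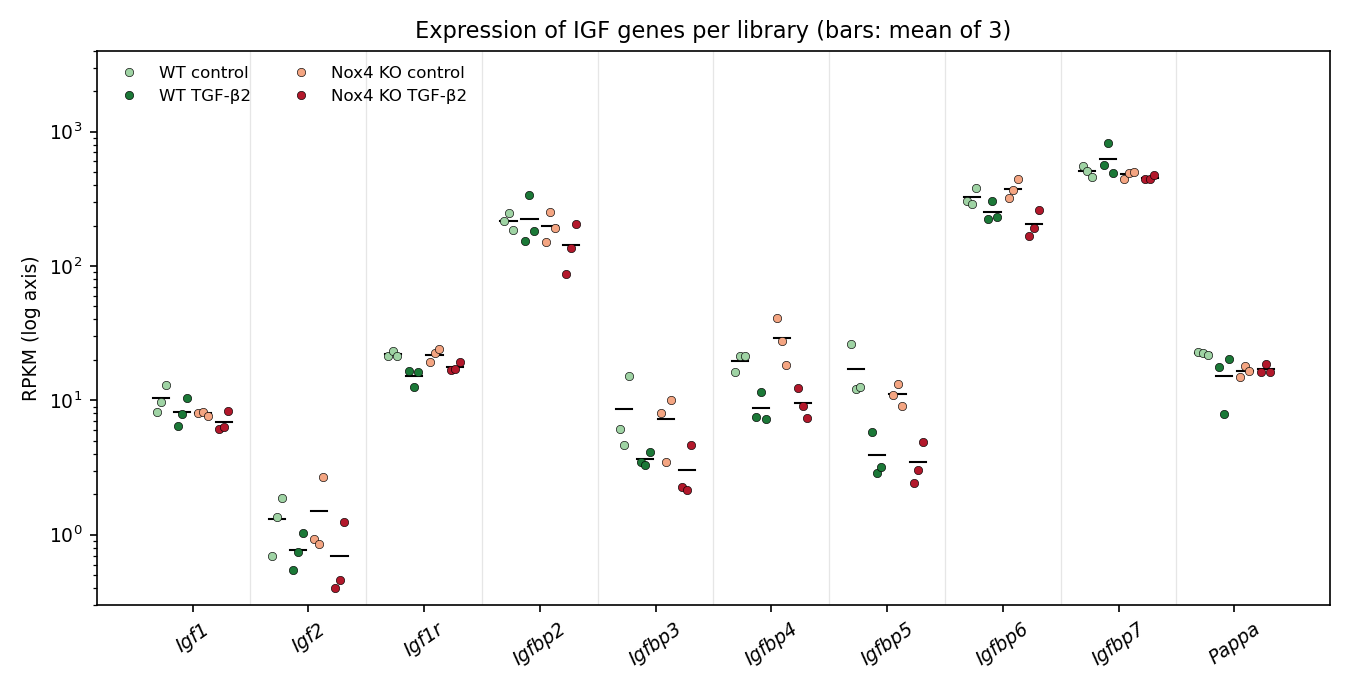
RPKM (log axis) of the 10 genes in each of the 12 libraries, with WT in green and Nox4 KO in red, light for control and dark for TGF-β2, and a bar at the mean of 3. Igfbp2, Igfbp6 and Igfbp7 lie above 80 RPKM in every library, and the dark points of Igfbp4 and Igfbp5 lie under the light points of the same genotype.

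Among the ligands, Igf1 transcripts were 8.21, 9.67 and 13.1 RPKM in WT control and 6.48, 7.86 and 10.4 RPKM in WT TGF-β2. In Nox4 KO they were 8.10, 8.25 and 7.63 RPKM in control and 6.14, 6.34 and 8.28 RPKM after TGF-β2. The groups overlapped in both genotypes, and the log2 fold changes of -0.28 ± 0.21 (SE) in WT and -0.12 ± 0.12 in Nox4 KO did not pass (edgeR adjusted p = 0.373 and 0.463). Igf1 is also made by macrophages. The summed macrophage markers were 42.1, 23.3 and 111 RPKM in WT control and 85.6, 30.4 and 18.7 RPKM in Nox4 KO control, with values after TGF-β2 of 31.4, 18.8 and 75.6 RPKM in WT and 61.0, 21.6 and 12.0 RPKM in Nox4 KO. In WT the library with the highest macrophage sum, replicate 3, also held the highest Igf1 in both conditions, whereas in Nox4 KO replicate 1 held the highest sum and not the highest Igf1. The part of such cells in the Igf1 level was not tested, and in bulk RNA fewer cells of a type and less RNA per cell cannot be told apart. An antisense gene, Igf1os, overlaps Igf1, and it is unknown if counting was by strand.

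Igf2, an imprinted gene that encodes a growth factor of fetal tissues, was at 0.692, 1.37 and 1.88 RPKM in WT control and at 0.543, 0.746 and 1.04 RPKM in WT TGF-β2. In Nox4 KO the values were 0.925, 0.852 and 2.70 RPKM in control and 0.402, 0.464 and 1.24 RPKM after TGF-β2. Counts behind these values were 95 to 541 per library. The groups overlapped in both genotypes, and replicate 3 was the highest library in every group. The fitted changes were -0.71 ± 0.38 in WT and -0.997 ± 0.615 in Nox4 KO on the log2 scale (edgeR adjusted p = 0.220 and 0.258). With 1 library left out the change of Igf2 ran from -1.02 to -0.37 in WT. In Nox4 KO it ran from -1.68 to -0.72 over the 5 fits that kept the gene. Each stimulated library lay under the control library of the same number in both genotypes. With the replicate number as a block Igf2 passed as lower, with an adjusted p of 0.00151 in Nox4 KO, where the numbers were taken to pair the libraries, and of 0.0331 in WT, where they were not. The Igf2 gene is overlapped by Gm49394 on the same strand and by the antisense gene Igf2os, so its counts are uncertain in this respect. Igf1 transcripts exceeded Igf2 transcripts 2.83-fold to 15.3-fold per length in the 12 libraries.

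Igf1r was at 21.4, 23.3 and 21.3 RPKM in WT control and 16.4, 12.6 and 16.3 RPKM in WT TGF-β2. Each stimulated library lay under each control library. The fitted change was -0.50 ± 0.14 (SE) on the log2 scale, 1.42-fold lower (edgeR adjusted p = 0.0406). This call sat close to the threshold. With library totals taken over all genes the adjusted p was 0.0522, and among the 6 fits that each left out 1 library it passed only without WT TGF-β2 replicate 2, where the change was -0.38 (adjusted p = 0.0199). In Nox4 KO the receptor was at 19.4, 22.4 and 24.0 RPKM in control and 16.9, 17.1 and 19.2 RPKM after TGF-β2, also without overlap, and its change of -0.22 ± 0.092 did not pass (edgeR adjusted p = 0.117). With the replicate number as a block the adjusted p of that change was 0.0213.

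Igfbp5 encodes a matrix-binding IGFBP known for its expression in fibrotic tissue and lies next to Igfbp2 on the opposite strand. It was at 26.2, 12.2 and 12.6 RPKM in WT control and 5.80, 2.87 and 3.19 RPKM in WT TGF-β2. In Nox4 KO it was at 11.0, 13.2 and 9.11 RPKM in control and 2.43, 3.01 and 4.92 RPKM after TGF-β2. The groups did not overlap in either genotype, and WT replicate 1 was the highest WT library both with and without TGF-β2. The log2 fold change was -2.06 ± 0.42 (SE, 95% interval -3.06 to -1.07) in WT and -1.60 ± 0.28 (-2.29 to -0.91) in Nox4 KO (edgeR adjusted p = 0.0151 and 0.0115). The WT call was kept in all 6 fits with 1 library left out, with changes of -2.48 to -1.59. The Nox4 KO call was lost without Nox4 KO TGF-β2 replicate 2, where the change was -1.52 (adjusted p = 0.0559).

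Igfbp4, whose product inhibits IGF action and is the substrate of the Pappa protease, was at 16.3, 21.4 and 21.3 RPKM in WT control and 7.48, 11.5 and 7.32 RPKM in WT TGF-β2. In Nox4 KO it was at 41.2, 27.5 and 18.4 RPKM in control and 12.3, 9.14 and 7.36 RPKM after TGF-β2. Stimulated libraries lay under the control libraries of their genotype without exception. The log2 fold change was -1.13 ± 0.20 (SE, 95% interval -1.59 to -0.66) in WT and -1.52 ± 0.34 (-2.34 to -0.70) in Nox4 KO (edgeR adjusted p = 0.00905 and 0.0214). All 6 WT fits with 1 library left out passed, with changes of -1.35 to -1.01. In Nox4 KO the call passed in 3 of 6 such fits, and was lost without control replicate 1 (-1.17, with an adjusted p just above 0.05), control replicate 2 (-1.54, 0.0596) or TGF-β2 replicate 2 (-1.49, 0.0858).

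Igfbp6 was at 302, 292 and 379 RPKM in WT control and 226, 302 and 232 RPKM in WT TGF-β2, where replicate 2 overlapped the controls. Nox4 KO cells had 321, 365 and 441 RPKM in control and 168, 190 and 259 RPKM after TGF-β2, without overlap. It fell in Nox4 KO by 0.78 ± 0.18 (SE) on the log2 scale, 1.72-fold (edgeR adjusted p = 0.0253). In WT the change was -0.32 ± 0.14 (adjusted p = 0.154), and without WT TGF-β2 replicate 2 it was -0.45 (adjusted p = 0.0327). The Nox4 KO call passed in 2 of 6 fits with 1 library left out, those without control replicate 1 and without TGF-β2 replicate 3, with changes of -0.98 to -0.65 over the 6 fits. The difference between genotypes in this response was tested as an interaction and did not pass, at -0.45 with a 95% interval of -0.99 to 0.092 (edgeR adjusted p = 0.854).

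Igfbp3, which encodes the main carrier of circulating IGF, was at 6.11, 4.65 and 15.2 RPKM in WT control and 3.49, 3.31 and 4.09 RPKM in WT TGF-β2. In Nox4 KO it was at 8.11, 3.48 and 10.1 RPKM in control and 2.27, 2.14 and 4.68 RPKM after TGF-β2, with overlap. The coefficient of variation was 65.9% in control and 11.3% after TGF-β2 in WT, and 46.9% and 47.3% in Nox4 KO. The log2 fold change of -1.20 ± 0.41 in WT and -1.16 ± 0.46 in Nox4 KO did not pass (edgeR adjusted p = 0.0814 and 0.107), although DESeq2 called both (adjusted p = 0.0139 and 0.0305). The replicate block also called both, at -1.03 in WT (edgeR adjusted p = 0.0331) and -1.13 in Nox4 KO (0.00819). The size of the WT change for Igfbp3 rested on control replicate 3, without which it was -0.53, and it ran from -1.47 to -0.53 over the 6 fits with 1 library left out. In Nox4 KO it ran from -1.61 to -0.86.

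Igfbp2 and Igfbp7 did not pass in either genotype. Igfbp2 was at 216, 247 and 184 RPKM in WT control and 154, 336 and 183 RPKM in WT TGF-β2, and Nox4 KO libraries held 151, 254 and 192 RPKM before and 87.9, 136 and 206 RPKM after stimulation. The changes were 0.087 (95% interval -0.60 to 0.77) in WT and -0.39 (-1.20 to 0.43) in Nox4 KO on the log2 scale. Igfbp7 was at 556, 512 and 458 RPKM in WT control and 562, 827 and 495 RPKM in WT TGF-β2, and Nox4 KO libraries held 447, 496 and 502 RPKM before and 441, 447 and 473 RPKM after stimulation. Its change was 0.34 (-0.14 to 0.81) in WT and 0.00087 (-0.16 to 0.17) in Nox4 KO. The highest Igfbp2 and Igfbp7 values of the series were both in WT TGF-β2 replicate 2. The end of Igfbp7 overlaps that of Polr2b on the opposite strand, which had at most 3417 counts per library against 20674 or more for Igfbp7.

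Pappa was at 23.0, 22.7 and 21.6 RPKM in WT control, the closest agreement of the 10 genes in that group, and at 17.6, 7.93 and 20.2 RPKM in WT TGF-β2. Nox4 KO libraries held 15.0, 17.9 and 16.6 RPKM in control and 16.3, 18.6 and 16.3 RPKM after TGF-β2. The WT groups did not overlap, but WT TGF-β2 replicate 2 stood far under the others and the change of -0.51 ± 0.32 did not pass (edgeR adjusted p = 0.294). Without that library it was -0.19. The change in Nox4 KO was 0.13 ± 0.096 (adjusted p = 0.327).

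**Figure D2:**
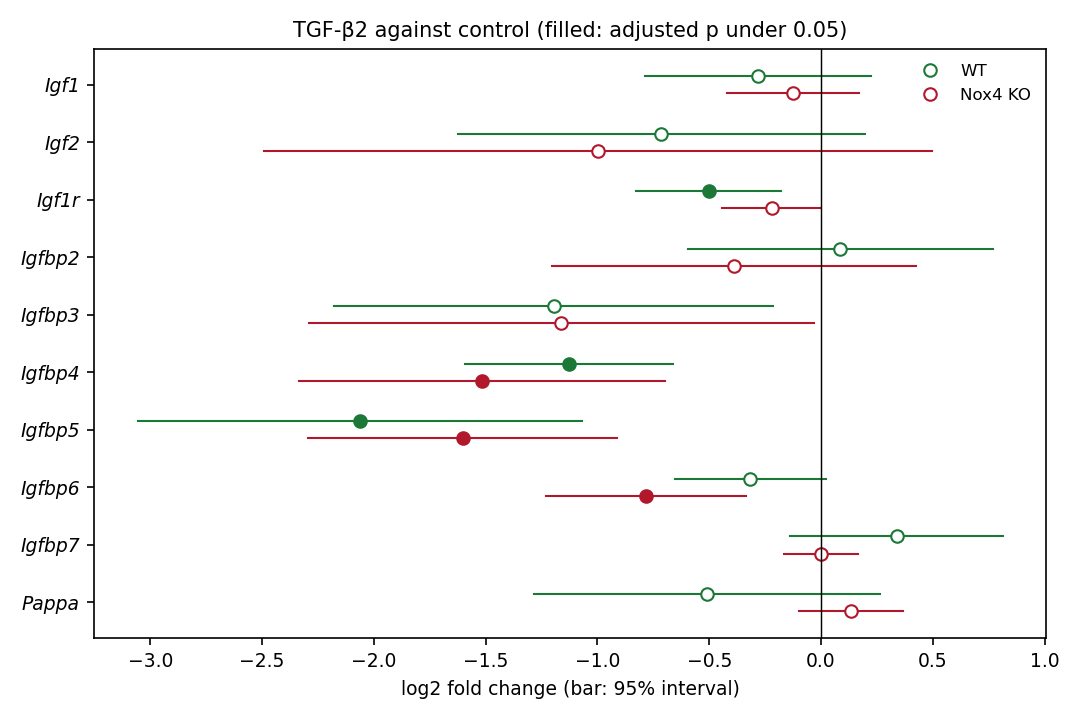
Log2 fold change after TGF-β2 (x axis) of each gene in WT (green) and Nox4 KO (red), with the 95% interval of the edgeR fit and filled points where the adjusted p was under 0.05. Filled points lie left of 0 for Igfbp4 and Igfbp5 in both genotypes, Igf1r in WT and Igfbp6 in Nox4 KO.

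In counts, 3 of the 10 genes passed as lower and 0 as higher in WT, where 22.6% of all 10743 genes tested passed, 12.2% as lower and 10.4% as higher. In Nox4 KO, 3 passed as lower and 0 as higher, beside 30.0% of 10809 genes in either direction, 14.9% lower and 15.1% higher. Of the genes that passed, 2 in each genotype changed at least 2-fold, where 7.72% of all genes in WT and 6.80% in Nox4 KO did so. Groups did not overlap for 5 of the 10 genes in WT and 4 in Nox4 KO, shares that resemble the 45.2% and 48.5% of all genes. The median log2 fold change of the 10 was -0.51 in WT and -0.59 in Nox4 KO, against -0.0027 and -0.014 over all genes tested. In Nox4 KO the split of 1637 higher and 1606 lower genes became 1032 and 2122 when libraries were scaled by their totals only, and 1216 and 1969 with upper-quartile scaling, while 3 of the 10 genes passed under each of these scalings.

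Same-numbered Nox4 KO libraries deviated together, and with the replicate number as a block 6 of the 10 genes passed as lower in Nox4 KO: Igf2 (-0.99, adjusted p = 0.00151), Igf1r (-0.22, 0.0213) and Igfbp3 (-1.13, 0.00819) beside Igfbp4, Igfbp5 and Igfbp6. The blocked fit called 2729 higher (25.2%) and 3113 lower genes (28.8%) in all. Without Nox4 KO TGF-β2 replicate 2 none of the 10 passed, without control replicate 2 only Igfbp5 did, and without TGF-β2 replicate 3 there were 5, Igf1 and Igfbp3 among them. No single library changed the WT calls for Igfbp4 and Igfbp5.

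The make-up of the binding protein transcripts was examined as the share of each in the summed RPKM of the 6 IGFBP genes. Igfbp2, Igfbp6 and Igfbp7 together made up 95.9% ± 0.6 (SD, n = 3) in WT control, 98.5% ± 0.3 in WT TGF-β2, and in Nox4 KO 95.6% ± 1.6 before and 98.0% ± 0.3 after stimulation. The share of Igfbp7 was 46.5% ± 3.4 in WT control and 56.0% ± 2.6 in WT TGF-β2, and 43.8% ± 1.7 and 56.0% ± 6.2 in Nox4 KO, with no overlap in either genotype. That of Igfbp6 was 29.7% ± 4.9 and 23.0% ± 2.4 in WT and 34.0% ± 3.2 and 24.9% ± 1.9 in Nox4 KO. Igfbp4 made up 1.80% ± 0.30 in WT control and 0.783% ± 0.007 in WT TGF-β2, and Igfbp5 1.54% ± 0.68 and 0.381% ± 0.208. In two-sided exact permutation tests these shares reached p = 0.1, the smallest that 3 against 3 libraries allow, for Igfbp4, Igfbp5, Igfbp6 and Igfbp7 in WT (adjusted p = 0.15) and Igfbp5, Igfbp6 and Igfbp7 in Nox4 KO (adjusted p = 0.2). A share of Igfbp7 can move because other members fell, since shares add up to a fixed total.

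**Figure D3:**
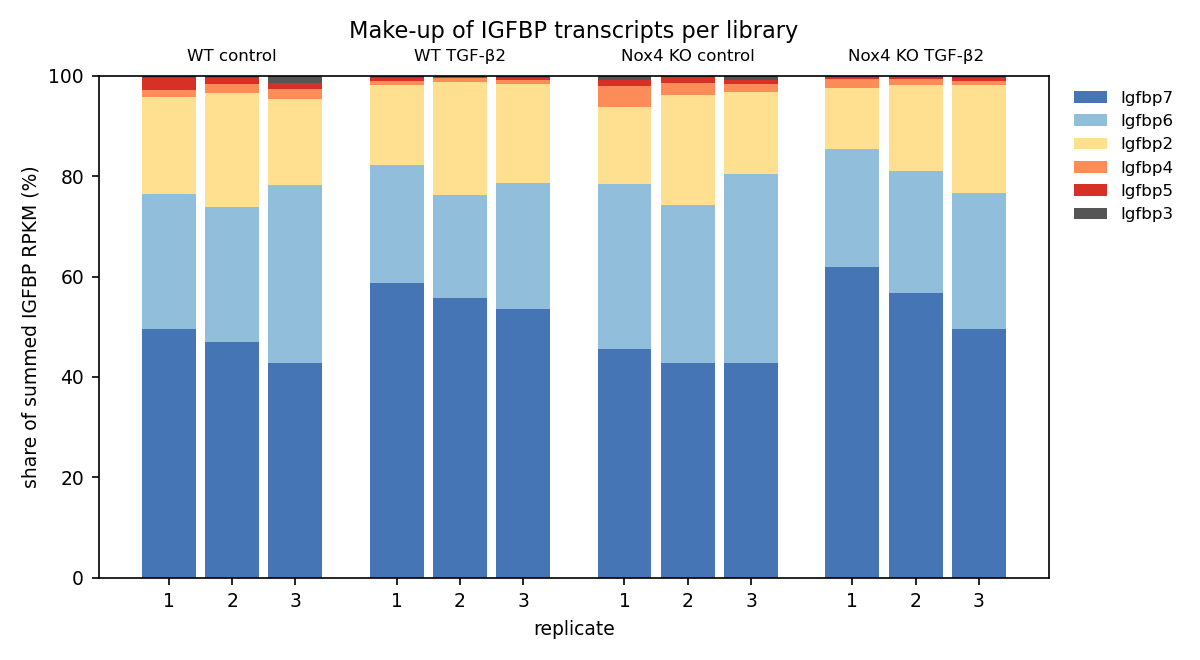
Share of each binding protein gene in the summed IGFBP RPKM (y axis, percent) for each library, grouped by genotype and treatment. Igfbp7 takes 42.8% to 49.5% in control and 49.5% to 61.8% in stimulated libraries, and the bands of Igfbp4, Igfbp5 and Igfbp3 at the top are thin throughout.

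The summed IGFBP level was 1094 ± 27 RPKM in WT control, 1123 ± 313 RPKM in WT TGF-β2, and in Nox4 KO 1103 ± 108 RPKM before and 819 ± 124 RPKM after stimulation. The mean of WT TGF-β2 rested on replicate 2, since the 3 libraries were at 959, 1483 and 925 RPKM. Without replicate 2 it was 942 RPKM, and both remaining libraries lay under every WT control library, which were at 1070 to 1124 RPKM. The binding protein transcripts exceeded the ligand transcripts, Igf1 and Igf2 together, by a factor of 71.4 to 172 in the 12 libraries. The factor was 98.7 ± 27.4 in WT control and 130 ± 46 in WT TGF-β2, with overlap, and 116 ± 10 and 108 ± 8 in Nox4 KO.

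Nox4 KO and WT cells were compared to ask whether loss of NADPH oxidase 4 altered the system. By the edgeR test none of the 10 genes passed in control cells and none of the 9 tested passed after TGF-β2. Over all genes, 0% of 10767 and 0% of 10439 passed. Nox4, the disrupted gene, did not pass either. Its log2 fold change was -0.99 in control cells and -1.17 after TGF-β2 (edgeR adjusted p = 0.828 and 0.838). A gene that did not pass can therefore still differ between the genotypes. At an unadjusted p under 0.05 there were 597 genes in control cells (5.54%), Pappa and Igf1 among them, and 337 after TGF-β2 (3.23%), Igfbp7 among them. The mean of Igf2 was under 1 RPKM in both stimulated groups, so Igf2 was outside that fit. Its log2(CPM + 0.5) was lower by 0.24 in Nox4 KO than in WT, with p = 0.7 in a two-sided exact permutation test.

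Of the 10 genes Pappa had the smallest p-value against WT in control cells, although the fitted differences of Igfbp4 and Igfbp5 were larger in size. The Nox4 KO values of 15.0, 17.9 and 16.6 RPKM all lay under the WT values of 23.0, 22.7 and 21.6 RPKM, and the log2 fold change was -0.48 ± 0.086 (SE, 95% interval -0.69 to -0.27). In the edgeR fit its unadjusted p was 0.00116, the 9th smallest of all genes, and its adjusted p 0.828. DESeq2 called Pappa (adjusted p = 0.00298) among 9 higher and 19 lower genes. Groups without overlap made up 13.6% of all genes in this comparison, and Pappa was the only one of the 10. After TGF-β2 the Pappa groups overlapped, with a difference of 0.17 (-0.63 to 0.97).

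For the other genes the intervals of the genotype difference in control cells were narrowest for Igf1r, at -0.047 (95% interval -0.27 to 0.18), Igfbp7 at -0.12 (-0.38 to 0.14) and Igfbp6 at 0.17 (-0.15 to 0.50). Igf1 was at -0.40 (-0.77 to -0.035). Igfbp4 was at 0.53 (-0.17 to 1.23) and Igfbp5 at -0.66 (-1.48 to 0.16). The intervals of Igf2 (-1.15 to 1.43) and Igfbp3 (-1.57 to 0.99), like those of Igfbp4 and Igfbp5, include differences of more than 2-fold in at least 1 direction. After TGF-β2, Igfbp7 was lower in each Nox4 KO library than in each WT library, at -0.44 (-0.86 to -0.025), and Igf1r higher, at 0.25 (-0.10 to 0.59), beside 10.1% of all genes without overlap.

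**Figure D4:**
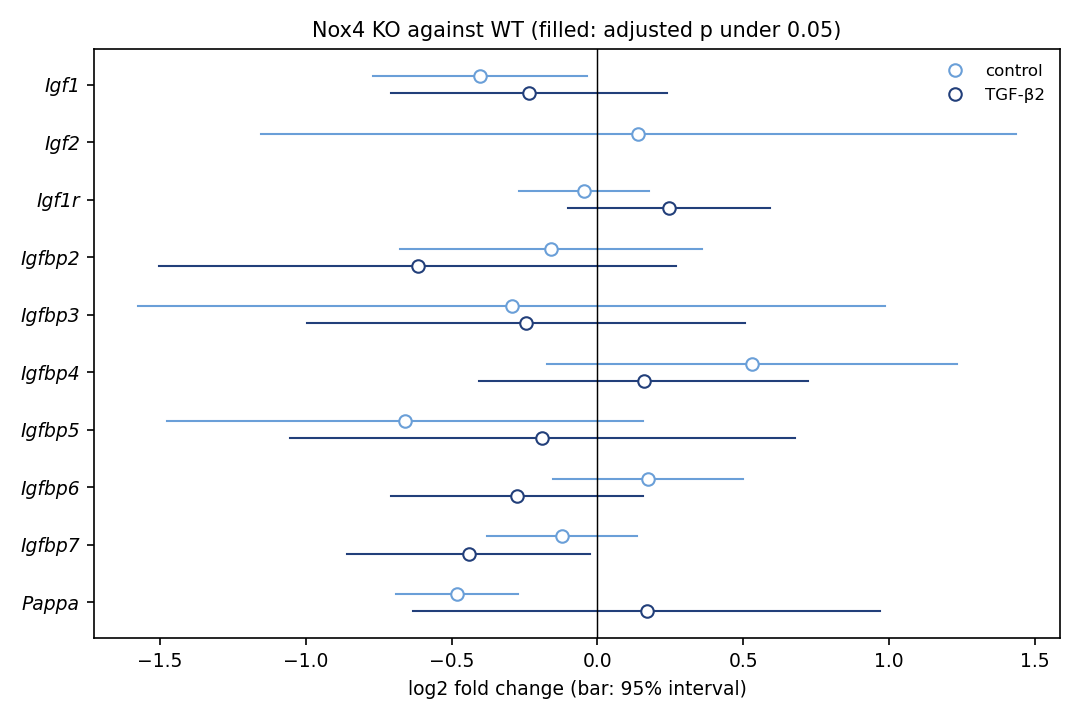
Log2 fold change of Nox4 KO against WT (x axis) for each gene in control cells (light blue) and after TGF-β2 (dark blue), with 95% intervals of the edgeR fit. No point is filled, and the interval of Pappa in control cells, -0.69 to -0.27, lies fully left of 0. Igf2 after TGF-β2 was outside the fit.

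Whether the response to TGF-β2 differed by genotype was tested as an interaction over all 12 libraries. None of the 10 genes passed, and 0% of 10890 genes did, with 292 (2.68%) at an unadjusted p under 0.05. The interaction was 0.65 (-0.20 to 1.50) for Pappa, 0.47 (-0.73 to 1.68) for Igfbp5 and -0.37 (-1.27 to 0.52) for Igfbp4. These intervals include differences in response of more than 2-fold. DESeq2 called 0 higher and 6 lower genes for the interaction, none of the 10 among them.

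Deviations of single libraries from their group were shared between some of the genes. Replicate 3 held the highest Igf2 and the highest Igfbp3 in each of the 4 groups, in WT and Nox4 KO alike. Across the 12 libraries, deviations from the group means of Igf1r and Pappa had r = 0.82, those of Igf2 and Igfbp6 r = 0.72 and those of Igf2 and Igfbp3 r = 0.70, while those of Igfbp7 and Pappa had r = -0.75 and those of Igf1r and Igfbp4 r = -0.74. These are descriptions over 12 libraries, and a library that stands apart enters every pair of genes.

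**Figure D5:**
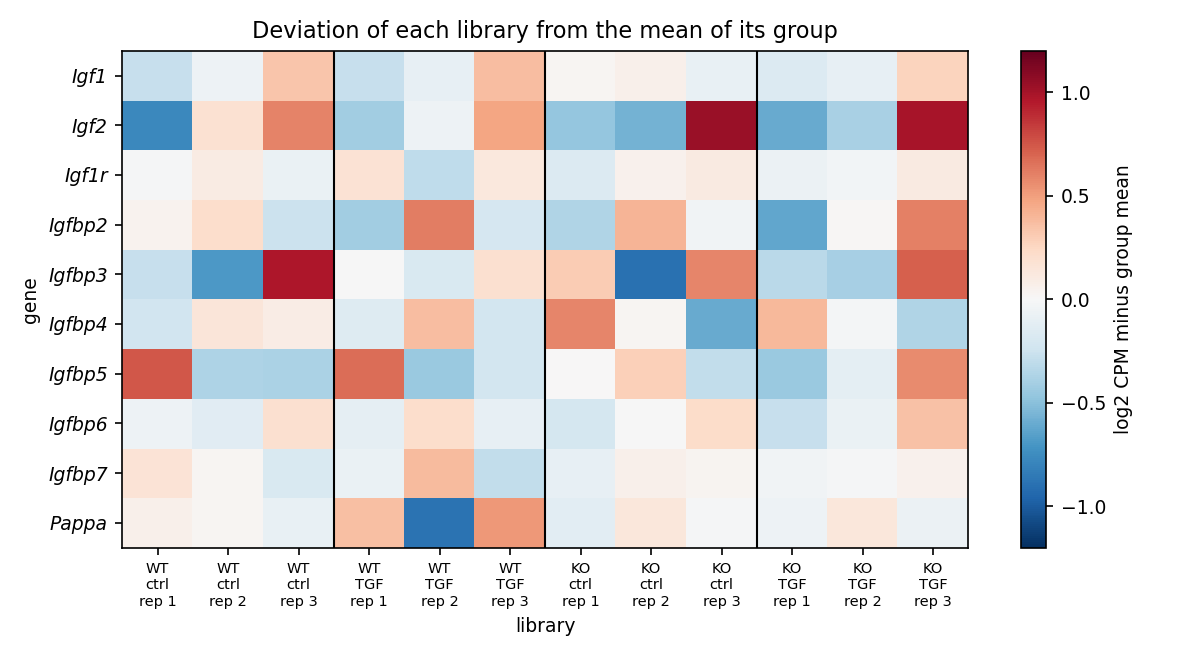
Log2 CPM of each gene in each library minus the mean of its group (colour), with groups separated by black lines. WT TGF-β2 replicate 2 is low for Pappa and Igf1r and high for Igfbp2 and Igfbp7, and replicate 3 is high for Igf2 and Igfbp3 in each group.

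The genes whose levels followed each member most closely were sought among 10890 genes by Pearson's r of log2 CPM over the 12 libraries. H2afy2 followed Igfbp4 (r = 0.98), Maob followed Igfbp5 (r = 0.96), Ptp4a3 followed Igfbp6 (r = 0.97) and Rab8a followed Igfbp7 (r = 0.96). Itpr1 followed Pappa (r = 0.97), Atp11a Igf1r (r = 0.96), Taz Igfbp3 (r = 0.95) and Pid1 Igf2 (r = 0.94). The closest genes to Igf1 and Igfbp2 were Trf (r = 0.90) and Mustn1 (r = 0.89). The 4 groups share these correlations, so a common response to TGF-β2 is contained in them.

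The wider IGF pathway was described by a list of 55 genes, of which 44 were tested for the response. In WT 2 passed as higher and 11 as lower, and in Nox4 KO 4 and 10, beside the shares of all genes given above. The median log2 fold change of the list was -0.24 in WT and 0.0079 in Nox4 KO. None passed between genotypes or for the interaction. In WT the count was between 5 and 15 with 1 library left out, at its lowest without TGF-β2 replicate 1 (5), control replicate 2 (6) or control replicate 1 (7). The Nox4 KO count was 8 without control replicate 1 or 2, 4 without TGF-β2 replicate 2, and 25 with the replicate block.

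Of 6 tested genes for proteases of the binding proteins and inhibitors of Pappa, 1 passed as higher and 3 as lower in WT. In Nox4 KO the counts were 0 and 3. Among all genes tested, 10.4% passed as higher and 12.2% as lower in WT, and 15.1% and 14.9% in Nox4 KO. Stc1, which encodes an inhibitor of the Pappa protease, was at 7.21, 5.12 and 9.42 RPKM in WT control and 0.748, 0.550 and 1.15 RPKM in WT TGF-β2. It fell by 3.10 on the log2 scale in WT and by 2.46 in Nox4 KO (edgeR adjusted p = 0.00176 and 0.00933). Adamts1, which encodes a secreted metalloproteinase, was at 70.1, 73.9 and 135 RPKM in WT control and 11.0, 9.22 and 15.1 RPKM in WT TGF-β2. It fell by 2.93 in WT and 2.63 in Nox4 KO (edgeR adjusted p = 0.00167 and 0.0122). Without Nox4 KO TGF-β2 replicate 2 the adjusted p of Adamts1 in Nox4 KO was 0.0595. Stc2, the other stanniocalcin gene, fell by 0.60 in WT and 1.11 in Nox4 KO (0.0369 and 0.00414). Its WT call passed in 1 of 6 fits with 1 library left out, the one without TGF-β2 replicate 2, whereas its Nox4 KO call passed in all 6. With no filter on low values the WT call of Stc2 was lost as well (edgeR adjusted p = 0.0665). Adam12, which encodes a metalloproteinase, was the gene that rose in WT, by 0.74 ± 0.19 (SE) on the log2 scale (edgeR adjusted p = 0.0352). That call passed in 1 of 6 fits with 1 library left out, the one without TGF-β2 replicate 2 (0.00611), and was lost with all 12 libraries in the fit (0.1798). In Nox4 KO the change of Adam12 was 1.19 ± 0.49 and did not pass (0.116). It passed there with the replicate block, at 1.26 (0.000580), and with all 12 libraries in the fit, at 1.23 (0.0440).

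Downstream of the receptor, Pik3r1, which encodes the regulatory p85 subunit of PI3-kinase, fell by 1.39 in WT and 1.20 in Nox4 KO on the log2 scale (edgeR adjusted p = 0.00507 and 0.00787). Pik3cb, which encodes a catalytic subunit, rose by 0.95 and 0.92 (0.0176 and 0.00522). Grb14, whose product inhibits insulin receptor signalling, fell by 0.87 and 1.24 (0.0163 and 0.0264). Its Nox4 KO call passed in 1 of 6 fits with 1 library left out, the one without control replicate 3, and its WT call in 3 of 6, being lost without control replicate 1 (0.0510), control replicate 2 (0.0571) or TGF-β2 replicate 1 (0.0531). The WT call of Pik3cb was lost without control replicate 1 (0.0761) or TGF-β2 replicate 1 (0.0698). Stat5a, which encodes a transcription factor of growth hormone signalling, fell by 0.80 in WT and 0.64 in Nox4 KO (0.00868 and 0.0109). Its Nox4 KO call was lost without TGF-β2 replicate 2 (0.0519), and its WT call passed in all 6 fits with 1 library left out.

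The remaining ligands and binding proteins of the list, Ins1, Ins2, Igfbp1, Igfbpl1 and Igfals, had at most 5 counts in any library. Ins1 had 0 counts in all 12, and a count of 0 allows up to 3 counts per library. The other receptors, Igf2r, which clears IGF2, and Insr, the insulin receptor gene, did not pass in either genotype. Both were lowest in WT TGF-β2 replicate 2, at 11.2 RPKM for Igf2r and 2.78 RPKM for Insr, where the other libraries of that group had 22.4 and 27.1 RPKM for Igf2r and 4.30 and 5.06 RPKM for Insr.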

How the data were processed

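RNA of primary skin fibroblasts was sequenced in 12 libraries as single reads of 50 nt. The authors aligned the reads with STAR 2.4 to GRCm38, kept uniquely placed reads and assigned them to the exons of protein-coding transcripts with featureCounts 1.4.6, per the labels and methods. The deposited values are these raw counts per gene. Strand use is not given in the sources used here.

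Symbols, positions and exon lengths were taken from the GENCODE annotation of GRCm38, and RPKM from count, length and library total. A count of 0 allows up to 3 counts, and such limits cover counting error only. Genes whose mean in any compared group reached 1 RPKM were tested with edgeR 4.0.16 (R 4.3.3, quasi-likelihood, TMM) and Benjamini-Hochberg adjustment over all of them, each pair of groups on its own 6 libraries and the interaction on all 12. A gene passed at an adjusted p under 0.05. Standard errors were derived from the F statistic. The scripts were tested on simulated data. Library pairs within groups differed by more than sampling noise, the chi-square statistic being 17.3 to 178 for each gene on average.

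The 10 genes, the pathway list and the tests were chosen with earlier results of these data known. The text names all 10 genes, up to 6 passing pathway genes of largest change in each comparison and the gene most like each member. Igf2r, Insr, Adam12 and the pathway genes without counts were named after their values were seen.

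Replicate numbers in the labels are shared by all groups. Deviations of same-numbered Nox4 KO libraries had r = 0.77, 0.69 and 0.75, so numbers were taken to pair them, from the data. In WT r was 0.073, 0.44 and 0.53, under the limit for 1 pair, so the WT libraries were not taken as paired. Alternatives were DESeq2 1.42.0, 2 other scalings, other filters, a replicate block, all 12 libraries in the fit, each library left out and, added after seeing the data, library totals over all genes.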

Additional observations from a re-analysis of the deposited data

How the results depend on the processing

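The directions and calls of Igfbp4 and Igfbp5 in WT were kept under all 8 other settings and all 6 fits with 1 library left out. The number of the 10 genes passing in WT was 3 and became 5 with the replicate block, which added Igf2 (-0.66, edgeR adjusted p = 0.0331) and Igfbp3 (-1.03, 0.0331) in a fit that called 12.3% of all genes higher and 16.4% lower, and 2 to 4 with 1 library left out. In Nox4 KO it was 3, became 6 with the replicate block, beside 25.2% of all genes called higher and 28.8% lower, and 0 to 5 with 1 library left out. For Nox4 KO against WT in control cells it was 0, and 1 with DESeq2, which called Pappa. For the other two comparisons it was 0 under every setting run. The replicate block changed no other call between genotypes or for the interaction. In WT, where the numbers were not taken to pair the libraries, all libraries but one correlated best with their own number. The cause of these changes was not tested.

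Changes near 0 turned sign. In Nox4 KO that of Igfbp7 was -0.086 with library totals only and -0.061 with upper-quartile scaling, and -0.046 to 0.036 with 1 library left out. Library totals only put the median of all genes at -0.10 in Nox4 KO. The Igfbp3 interaction was -0.11 with the replicate block. With 1 library left out, Igfbp2 in WT ran from -0.30 to 0.26. Between genotypes in control cells Igf1r ran from -0.10 to 0.029, Igfbp2 from -0.39 to 0.0026, Igfbp3 from -0.59 to 0.35 and Igf2 from -0.58 to 0.46, and after TGF-β2 Igfbp4 ran from -0.062 to 0.37, Igfbp5 from -0.52 to 0.23 and Pappa from -0.16 to 0.42. The interaction ran from -0.029 to 0.38 for Igf1, -0.95 to 0.43 for Igf2, -0.62 to 0.35 for Igfbp3 and -0.0020 to 0.89 for Igfbp5. The change in the share of Igfbp2 ran from -1.76 to 1.52 percentage points in WT and from -3.10 to 1.53 in Nox4 KO.

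Genes passing numbered 1117 higher and 1308 lower in WT, 1665 and 1718 with DESeq2, 1780 and 1618 with all 12 libraries in the fit. Leaving out Nox4 KO TGF-β2 replicate 2 gave 572 and 562 in Nox4 KO. Igf2 in Nox4 KO gave no value without control replicate 3, since it fell under the filter. Counts of Igf2, 95 to 541 per library, were the lowest of the 10 genes.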
